A study of Caenorhabditis elegans with 2 samples.

Results

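MicroRNA genes were all genes that the Ensembl release 115 annotation of the Caenorhabditis elegans genome WBcel235 gives the biotype miRNA, 261 of 46926 annotated genes. Each was taken with a window that ran from 2000 bp before its 5′ end to 250 bp past its 3′ end, and the deposited peaks of the transcription factor ELT-3 were counted there by their summits. Of the 261 genes, 106 lay wholly inside a protein-coding gene, 74 of them on the strand of that host and 32 on the other strand only. The other 155 stood apart from protein-coding genes, although 3 of these overlapped one in part. The annotated genes were 52 to 1732 bp long, with a median of 95 bp, so most entries are little more than the hairpin. The longest was let-7, which is annotated as a transcript and not as a hairpin. Together the windows covered 531.7 kb, or 0.530% of the nuclear chromosomes, and 73 genes had a window that overlapped that of another microRNA gene.

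The chromatin came from intact first-stage (L1) larvae of both sexes. All were of strain OP75, genotype unc-119(ed3) III; wgIs75, in which a stable transgene supplies ELT-3 with GFP and FLAG at its C-terminal end. There was 1 group with 2 biological replicates, no second condition was compared, and the control chromatin was not analysed here. The labels name elt-3 as the antibody target and do not say whether the endogenous protein or the tag was recognised. The peak lists give no read depth, and peak signal, the strength the authors' caller gave each peak, has no stated scale, so signals were compared within a list only. The ce11 list made from both replicates (the pooled list) held 5659 peaks and also includes weak and background calls. The 1262 peaks that passed the authors' reproducibility threshold (the thresholded list) were the strongest 1262 of it, with signals of 42.9 to 271.5. Replicate 1 alone had 25325 listed peaks and replicate 2 had 26500.

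A microRNA is cut from a hairpin in a longer transcript, first by the nuclear enzyme Drosha and then by Dicer, and is loaded into an Argonaute protein that represses messenger RNAs matching its seed, bases 2 to 8. Hairpins may have a transcription unit of their own or sit in an intron of a host gene whose transcript carries them. ELT-3 is a GATA factor and so of a class that binds WGATAR (W stands for A or T and R for A or G). In the worm it is known from the hypodermis, the epidermal tissue that makes the cuticle. The founding microRNAs lin-4 and let-7 were found in this animal as timers of larval development, and much of that timing is read out in the epidermis.

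The sequence under the summits is shown first, since microRNA genes with strong ELT-3 peaks differed in whether a WGATAR word was near. Each line holds the summit base with 50 bp on either side, from the plus strand of the RefSeq WBcel235 genome, with WGATAR on either strand in capitals. The mir-47 window (X:13920518-13920618, 682 bp before the gene) is the strongest microRNA summit, and the window shared by mir-51 and mir-53 (IV:11027745-11027845) is the strongest shared one. Neither holds the word.
mir-47: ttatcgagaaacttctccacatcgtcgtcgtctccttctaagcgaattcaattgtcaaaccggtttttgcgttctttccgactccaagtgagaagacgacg
mir-51 and mir-53: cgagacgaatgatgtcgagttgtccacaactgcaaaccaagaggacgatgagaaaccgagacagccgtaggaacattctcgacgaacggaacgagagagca
The next 6 are thresholded summits with WGATAR: mir-229 (III:2170667-2170767, in an intron of its host gcn-1), mir-238 (III:8868434-8868534), mir-80 (III:8865612-8865712), mir-75 (X:2372271-2372371), mir-2221 (X:1389551-1389651) and mir-5551 (IV:9755846-9755946). The mir-229 window holds 3 copies and the others 1 each.
mir-229: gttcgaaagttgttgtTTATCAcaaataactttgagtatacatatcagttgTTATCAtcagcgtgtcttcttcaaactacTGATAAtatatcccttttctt
mir-238: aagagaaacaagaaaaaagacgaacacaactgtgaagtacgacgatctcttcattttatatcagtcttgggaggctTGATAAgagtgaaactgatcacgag
mir-80: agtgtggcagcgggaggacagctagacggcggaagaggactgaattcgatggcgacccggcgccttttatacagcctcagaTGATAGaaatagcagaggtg
mir-75: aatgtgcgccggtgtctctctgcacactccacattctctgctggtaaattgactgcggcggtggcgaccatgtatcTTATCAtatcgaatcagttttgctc
mir-2221: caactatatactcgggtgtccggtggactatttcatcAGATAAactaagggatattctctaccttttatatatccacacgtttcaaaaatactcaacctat
mir-5551: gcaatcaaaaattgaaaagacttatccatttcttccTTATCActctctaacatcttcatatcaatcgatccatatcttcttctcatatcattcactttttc
The last 2 belong to developmental timers and come from the pooled list: let-7 (X:14747110-14747210), with the word at the edge of the window, and mir-84 (X:16022970-16023070), without it.
let-7: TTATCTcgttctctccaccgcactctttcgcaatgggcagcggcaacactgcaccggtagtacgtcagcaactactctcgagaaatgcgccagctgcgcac
mir-84: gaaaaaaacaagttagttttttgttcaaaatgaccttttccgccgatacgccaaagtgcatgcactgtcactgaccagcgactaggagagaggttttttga

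The mature products show which of these genes can act on the same targets. The Ensembl annotation gives mature arms for 260 of the 261 genes, 458 arms in all, and 46 seeds were shared by 2 or more genes. The arms below are read from the RefSeq WBcel235 genome at their annotated positions, with the seed in capitals. Counts by seed are set beside 21.8% of all microRNA genes with a pooled summit and 7.66% with a thresholded one. All 6 genes with the seed ACCCGUA had a summit in the pooled list.
mir-51: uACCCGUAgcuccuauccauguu
mir-52: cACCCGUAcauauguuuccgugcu
mir-53: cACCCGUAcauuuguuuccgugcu
mir-54: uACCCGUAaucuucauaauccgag
mir-55: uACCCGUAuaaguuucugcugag
mir-56: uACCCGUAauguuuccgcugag
All 3 genes with the seed UUGUACU had one too, and so did both with GUCAUGG, mir-46 and mir-47, whose other arms also share a seed. The seed UAAAGCU belongs to mir-75 and mir-79, both in the thresholded list.
mir-238: uUUGUACUccgaugccauucaga
mir-239.1: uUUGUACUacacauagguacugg
mir-239.2: uUUGUACUacacaaaaguacug
mir-46: uGUCAUGGagucgcucucuuca
mir-47: uGUCAUGGaggcgcucucuuca
mir-75: uUAAAGCUaccaaccggcuuca
Of 5 genes with the let-7 seed GAGGUAG, 3 had a pooled summit and none a thresholded one. The count includes let-7 only because its window starts from the annotated transcript and not from the hairpin. One gene each of 6 with the seed GAGAUCA (mir-80) and of 5 with AUGACAC (mir-229) had a summit, thresholded in both cases. mir-64, mir-65 and mir-66 share the seed AUGACAC and lie in a cluster with mir-229. Their windows begin at III:2170848, III:2171002 and III:2171108, just past the mir-229 summit at III:2170717. The count for AUGACAC thus depends on where the windows were cut.
let-7: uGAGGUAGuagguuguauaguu
mir-48: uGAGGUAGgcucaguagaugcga
mir-84: uGAGGUAGuauguaauauuguaga
mir-80: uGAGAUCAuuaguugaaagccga
mir-229: aAUGACACugguuaucuuuuccaucg
Of the 46 shared seeds, 8 had at least 2 genes with a pooled summit, and these were singled out after their values were seen. Genes of a seed group often lie in a cluster and then share a summit, so their counts are not independent.

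ELT-3 summits were found at a small part of the microRNA genes. In the thresholded list 20 of 261 had a summit in the window, 7.66% with a 95% Wilson interval of 5.02 to 11.5%. The share was 4.68% of protein-coding genes and 3.89% of all genes other than microRNA genes, over start windows of the same length (2000 bp before to 344 bp after the 5′ end). Among non-coding genes other than microRNA and piRNA genes it was 4.71% for those inside a protein-coding gene and 5.21% for those apart. The microRNA interval thus lay above 3 of these 4 values and included the fourth. The higher share was not confined to the window. In 500 bp bins out to 5000 bp on either side, thresholded summits per gene were also more frequent than at protein-coding genes. The exceptions were the bins from -4000 to -3500 bp and from 2000 to 2500 bp. From 3000 to 3500 bp past the 5′ end there were 1.15 per 100 microRNA genes and 0.546 per 100 protein-coding genes. Each bin held few microRNA summits. With only 1000 bp before the gene, 12 microRNA genes had a summit (4.60%, 2.65 to 7.86%), against 3.31% of protein-coding genes. In the upper 50% of the list by signal 9 did (3.45%, 1.82 to 6.42%), against 2.30%. Both of these intervals included the protein-coding share, so the separation from it holds at the main settings and not at these. With 5000 bp before the gene 30 had a thresholded summit (11.5%, 8.17 to 15.9%), and the interval lay above the 7.93% of protein-coding genes. In the pooled list 57 of 261 microRNA genes had a summit, 21.8% (17.3 to 27.2%), against 15.6% of protein-coding genes, 13.2% of all other genes, 16.9% of other non-coding genes inside and 16.7% of those apart. With 1000 bp before the gene the pooled count was 33 (12.6%, 9.15 to 17.2%), and its interval included the 11.0% of protein-coding genes. With 5000 bp it was 83 (31.8%, 26.4 to 37.7%), and the interval included their 26.6%. In the upper 50% of the pooled list it was 40 (15.3%, 11.5 to 20.2%), above their 9.08%. No test was made of these differences, and the intervals cover counting error only, over genes that in part share summits. The other 204 microRNA genes had no pooled summit in the window, which does not show that ELT-3 is absent there, since the depth is unknown.

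**Figure D1:**
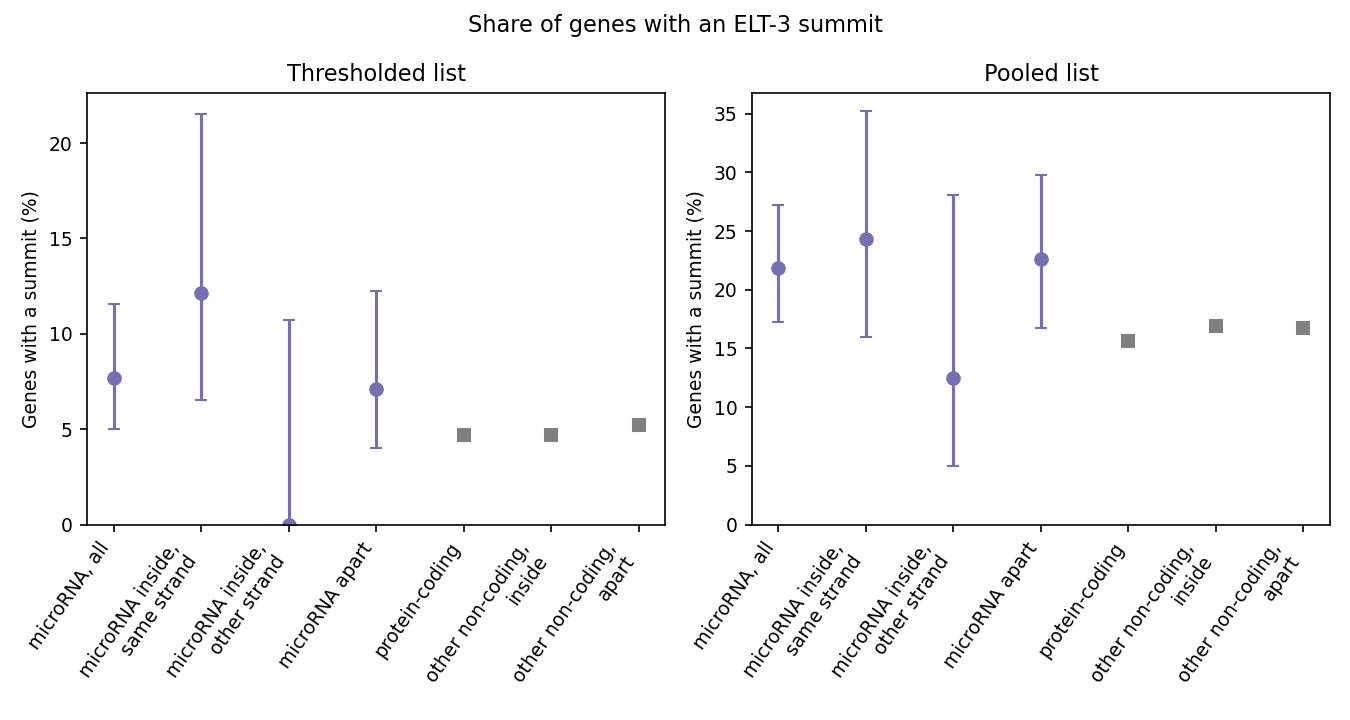
Share of genes with an ELT-3 summit, in % of genes, in the thresholded (left) and pooled list (right). Circles with 95% Wilson intervals are microRNA genes and grey squares are background gene classes over start windows of equal length; the microRNA shares of 7.66% and 21.8% lie above the 4.68% and 15.6% of protein-coding genes.

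The 20 genes had 21 distinct summits, 1.66% of the thresholded list, because mir-79 and mir-71 had 2 each and mir-51 shared 1 with mir-53. The pooled list had 56 distinct summits in the windows, 0.990% of its peaks. In the thresholded list, microRNA summits had a median signal of 55.3, against 56.4 for the other summits. In the pooled list the medians were 36.2 for microRNA summits and 29.95 for the others. Of the 21 thresholded summits, 12 (57.1%) were also among the 1262 strongest peaks of each replicate, as were 725 of the other 1241 (58.4%). The thresholded microRNA summits were thus close to the rest of the list in median signal and in recurrence between replicates. Of the 56 pooled summits, 26 (46.4%) were among the 5659 strongest peaks of each replicate, against 35.7% of the others, so the pooled shares lay farther apart.

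mir-47 (X:13921250-13921346) had the strongest summit of any microRNA gene, the 13th of the whole pooled list. Its signal was 184 in the pooled list, 86.0 in replicate 1 (rank 21) and 100.1 in replicate 2 (rank 8), so both replicates placed it among their strongest peaks. The summit lay between protein-coding genes on X, 682 bp before mir-47 and 3397 bp from the nearest protein-coding start, that of ekl-5. Its seed partner mir-46 on III had a summit of 25.1, near the low end of the pooled list, 1984 bp before the gene. The pair therefore shared its seeds and stood at opposite ends of the range of signals.

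mir-79 (I:9332946-9333043) acts in the worm epidermis, where it is known to tune proteoglycan synthesis, and it had 2 thresholded summits on either side of the gene. The summit 335 bp before it on I was the 21st of the pooled list with a signal of 159, 109.0 in replicate 1 (rank 10) and 49.4 in replicate 2 (rank 102). The summit 336 bp past its 5′ end had 60.1 in the pooled list, 29.9 in replicate 1 and 29.3 in replicate 2. The second summit ranked 745 in replicate 1 and 550 in replicate 2. The nearest protein-coding start, of cbl-1, lay 4754 and 5425 bp away. WGATAR occurred 3 times within 50 bp of the first summit and 2 times within 50 bp of the second. mir-75, which shares the seed, had its summit 132 bp before the gene on X with 55.3 in the pooled list, 34.9 in replicate 1 and 20.4 in replicate 2 and 1 WGATAR. Both genes of this seed thus had thresholded summits with the motif, close to the gene.

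The mir-51 family, which is abundant and needed for embryonic development, had a summit of the pooled list at every member, through 5 distinct peaks at 3 loci. On IV, the summit lay 104 bp before mir-53 (IV:11027593-11027691) and 1683 bp before mir-51 (IV:11026013-11026112). Its signal was 63.8 in the pooled list (rank 445), 40.4 in replicate 1 and 22.6 in replicate 2, and a second, weaker summit lay 531 bp before mir-53 with 30.01 in the pooled list. mir-52, elsewhere on IV, had summits 291 and 1104 bp before the gene with pooled signals of 39.6 and 26.5, both under the threshold. The first of these held 1 WGATAR and had 26.8 in replicate 1, where it was within the 1262 strongest, and 13.2 in replicate 2. The second had no overlapping peak in replicate 1. On X, mir-54, mir-55 and mir-56 lie with the antisense hairpin mir-55b inside F09A5.3 and shared a summit of 27.7 that fell within the cluster, 11 bp past the 5′ end of mir-55. The X summit ranked 10776 in replicate 1 and 3467 in replicate 2. The −log10 of the q-value the authors gave it in the pooled list was 0.132, against 2.25 for the stronger mir-53 summit. The family thus had 2 thresholded members of 6, and the X cluster stood only just above the lowest pooled signal of 24.5.

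**Figure D2:**
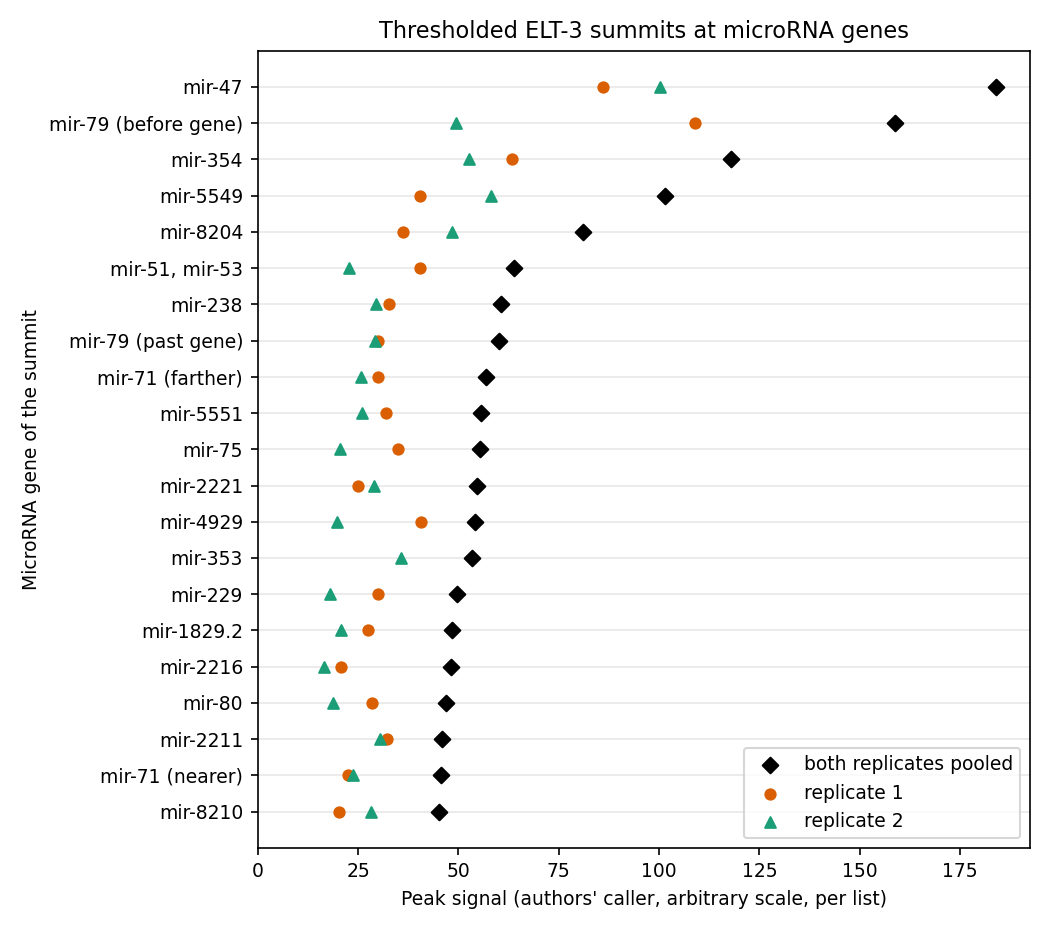
Peak signal, on the authors' scale, of the 21 thresholded summits in microRNA windows, ordered by pooled signal. Diamonds are the pooled list, circles replicate 1 and triangles replicate 2, each list on its own scale; mir-47 leads at 184, the summit before mir-79 follows at 159, and mir-353 has no replicate 1 point because no peak of that list overlapped it.

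Inside members with a thresholded summit all lay on the strand of their host. mir-354 (I:14468382-14468491) lies in the ribosomal protein gene rps-20 on I, and its summit had 118 in the pooled list, 63.3 in replicate 1 and 52.7 in replicate 2. That summit was 836 bp before mir-354 and 224 bp before the host start, with another gene, ekl-4, starting 173 bp away. mir-353 lies in a second ribosomal protein gene, rpl-24.1, and had 53.3 in the pooled list and 35.6 in replicate 2, but no overlapping peak in replicate 1. mir-8204 (I:3710171-3710241) in F21A9.1 had 81.0 in the pooled list, 36.1 in replicate 1 and 48.4 in replicate 2, at 178 bp before the microRNA and 97 bp before the host start. mir-4929 in E01G4.3 (54.1 in the pooled list), mir-1829.2 in F20D1.3 (48.5) and mir-2216 in gmps-1 (48.1) also had their summit in the promoter window of the host, 135 bp before the host start for mir-4929 and 175 bp for mir-1829.2. For all 6 genes the host start was nearer to the summit than the microRNA was.

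The remaining inside members had their thresholded summit in an intron, outside the promoter window of the host. mir-71, which is known to extend life span and to act in stress resistance, lies in ppfr-1 on I and had 2 thresholded summits, 1814 and 1358 bp before it. They had 57.0 and 45.7 in the pooled list, 29.9 and 22.5 in replicate 1, and 25.8 and 23.7 in replicate 2, and they lay 7750 and 8206 bp past the host start. mir-2, in the same host, had a summit of 25.8 in the pooled list. mir-229 in gcn-1 had 49.6 in the pooled list, 29.9 in replicate 1 and 18.1 in replicate 2, at 1735 bp before the microRNA and 18772 bp past the host start. mir-8210 in slc-25A29 had 45.1 in the pooled list, 20.3 in replicate 1 and 28.2 in replicate 2, at 552 bp before the microRNA and 974 bp past the host start. Its other pooled summit, at 37.3, lay 175 bp before the host start.

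Among genes apart, mir-5549 (III:6971976-6972085) had a summit 8 bp before its 5′ end with 102 in the pooled list, 40.5 in replicate 1 and 58.3 in replicate 2. The protein-coding gene rfc-4 starts 160 bp from it, so the peak lay in the promoter window of that gene as well. mir-238 (III:8867328-8867425), which is known from work on life span, and mir-80 (III:8865270-8865367), of the mir-58 (bantam-like) family, are neighbours on III with separate summits. The mir-238 summit, 1059 bp before the gene, had 60.5 in the pooled list, 32.6 in replicate 1 and 29.6 in replicate 2, and the mir-80 summit, 295 bp before the gene, had 46.9, 28.5 and 18.7 in the same lists. The nearest protein-coding start, of K01F9.2, lay 8644 bp from the mir-238 summit and 11466 bp from the mir-80 summit. mir-5551 (55.5 in the pooled list), mir-2221 (54.5) and mir-2211 (46.0) complete the list, with summits 1612 and 1246 bp before the first 2 genes and 85 bp past the 5′ end of mir-2211.

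The share of genes with a summit was similar inside and apart. Among thresholded summits it was 9 of 106 inside (8.49%, 4.53 to 15.4%) and 11 of 155 apart (7.10%, 4.01 to 12.3%), a difference of 1.39 percentage points with a 95% Newcombe interval of -5.11 to 8.92. Pooled summits were found at 22 of 106 inside (20.8%) and 35 of 155 apart (22.6%), a difference of -1.83 points (-11.6 to 8.65). Both intervals included 0, which does not show that the classes are alike. On the host strand 9 of 74 had a thresholded summit (12.2%, 6.53 to 21.5%), and on the other strand 0 of 32, with a Wilson upper bound of 10.7%. A count of 0, taken as fewer than 3 counts, allows a share of up to 9.38%. Pooled summits were at 18 of 74 on the host strand (24.3%) and at 4 of 32 on the other strand (12.5%, 4.97 to 28.1%). The other-strand count is made of mir-798 and of mir-54, mir-55 and mir-56, which share a summit. The genes on the other strand also include mir-35 to mir-41, which have largely the same window. These intervals and the limit for 0 treat such genes as independent, which they are not.

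Where the summit lay was described separately for inside and apart members. Of 10 pairs of an inside gene and a thresholded summit, 6 had the summit in the promoter window of the host (1000 bp before to 250 bp after a transcript start), and in 4 the summit was nearer to the microRNA than to any protein-coding start. Of 12 such pairs of genes apart, 11 were nearer to the microRNA. With pooled summits, 10 of 25 inside pairs had the summit in the promoter window of the host, and the microRNA was nearer in 15 of 25 inside pairs and in 29 of 39 apart pairs. Genes apart have no host, so these counts are given as a description. Of all thresholded pairs, 20 of 22 had the summit before the 5′ end, 7 within 500 bp, 4 from 500 to 1000 bp and 9 from 1000 to 2000 bp, with a median position of -759 bp. Pooled summits lay before the 5′ end in 57 of 64 pairs, with a median of -794 bp; most of the window lies there.

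**Figure D3:**
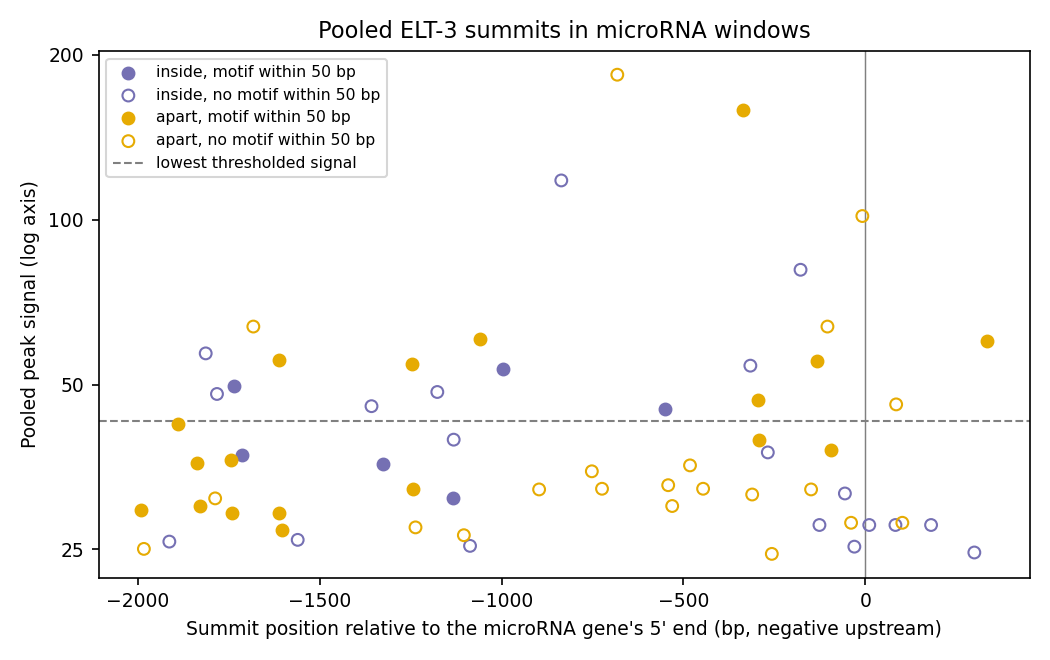
Pooled signal (log axis) of each pooled summit against its distance in bp from the 5′ end of the microRNA gene (negative before the gene), with a point for each pair of gene and summit. Violet marks genes inside and yellow genes apart, filled points have WGATAR within 50 bp, and the dashed line is the lowest thresholded signal, 42.9; the strongest point, mir-47 at 184, is open.

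By place in the genome, 10 of the 21 thresholded microRNA summits lay between protein-coding genes (47.6%), against 29.2% of the other summits of the list, and 7 lay in a promoter window of a protein-coding gene (33.3%), against 49.6%. The other 4 were intronic and none was exonic. Of the pooled microRNA summits, 23 of 56 lay between protein-coding genes (41.1%, against 24.4%), 18 in a promoter window (32.1%, against 39.7%), 13 in introns (23.2%, against 18.4%) and 2 in exons (3.57%, against 17.5%). The windows were placed around microRNA genes and not around protein-coding starts, and the part of this in the shares was not tested. By chromosome, thresholded summits were found at 6 of 33 microRNA genes on I, 2 of 49 on II, 4 of 27 on III, 3 of 50 on IV, 1 of 28 on V and 4 of 74 on X. The shares of protein-coding genes were 6.29% on I, 4.03% on II, 5.91% on III, 4.08% on IV, 3.58% on V and 5.35% on X. MicroRNA genes on X had a thresholded summit in 5.41% (2.12 to 13.1%) and those on the autosomes in 8.56% (5.34 to 13.4%). For pooled summits the order was turned, with 18 of 74 on X (24.3%) and 39 of 187 on the autosomes (20.9%). The intervals overlapped in both lists. Protein-coding genes had a pooled summit in 19.6% on X and 14.98% on the autosomes, so the pooled order was not particular to microRNA genes. Their thresholded shares were 5.35% on X and 4.58% on the autosomes, the reverse of the order of microRNA genes.

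WGATAR was about as frequent at microRNA summits as elsewhere in the thresholded list. It lay within 50 bp of 10 of 21 microRNA summits (47.6%, 28.3 to 67.6%), against 624 of 1241 other summits (50.3%). Windows of the same length 500 bp lower and 500 bp higher on the chromosome held it in 2 and 5 of 21. Of all adjoining pieces of the microRNA windows, cut to the length of that search, 21.6% held it. Of pooled microRNA summits, 23 of 56 had it (41.1%, 29.2 to 54.1%), against 33.6% of the 5603 others, and 8 and 14 of the 56 windows 500 bp away had it. The direction turned in some settings. Without replicate 2, 15 of 55 microRNA summits had the word (27.27%), against 31.8% of others, and with 1000 bp before the gene 8 of 29 had it (27.59%), against 33.7%. With 5000 bp the shares were 33.33% and 33.7%.

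The motif was found at 3 of 10 thresholded summits of inside members and at 7 of 11 of apart members. Pooled summits had it at 6 of 22 (27.3%, 13.2 to 48.2%) inside and 17 of 34 apart (50%, 34.1 to 65.9%), so the intervals overlapped in both lists. By place, 7 of 10 thresholded microRNA summits between protein-coding genes had WGATAR, against 54.1% of other summits there. In promoter windows it was at 1 of 7 microRNA summits, that of mir-353, against 45.4% of other summits there. Pooled summits in promoter windows went the other way, with the word at 8 of 18 microRNA summits (44.4%, 24.6 to 66.3%) and at 35.0% of others. Among the 8 strongest microRNA genes of the thresholded list, mir-79 and mir-238 had the motif and mir-47, mir-354, mir-5549, mir-8204, mir-51 and mir-53 did not. A match says only that these letters are in the window.

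**Figure D4:**
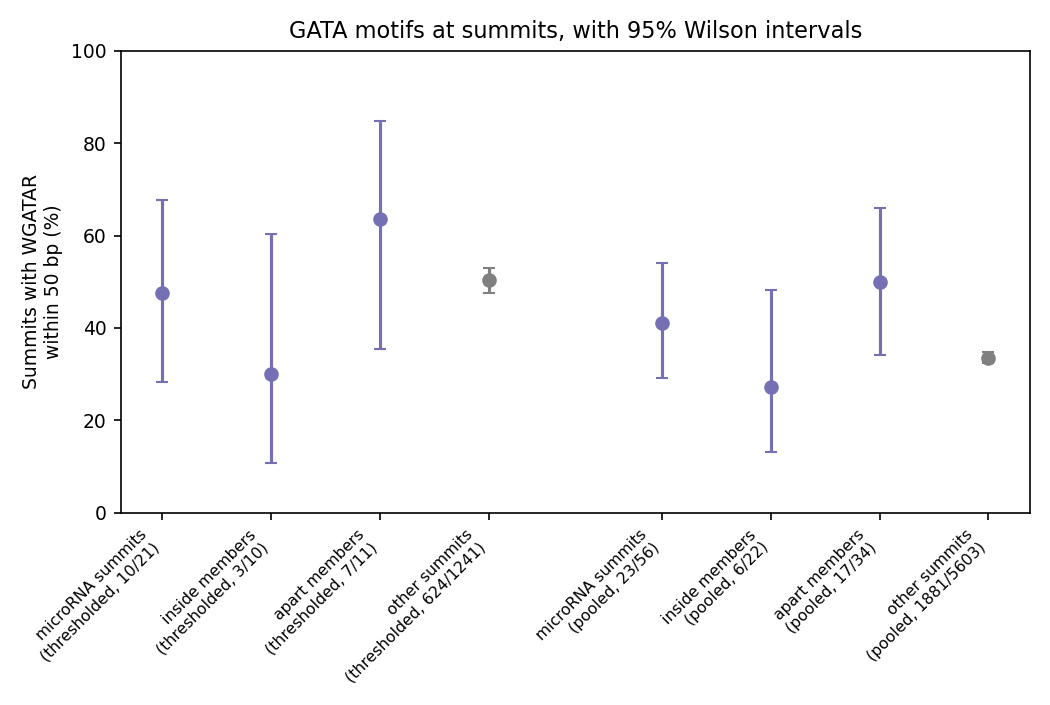
Share of summits, in %, with WGATAR on either strand within 50 bp, with 95% Wilson intervals. MicroRNA summits and those of inside and apart members (violet) stand left of the other summits (grey) of the thresholded and of the pooled list; the thresholded shares are 47.6% and 50.3%.

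The microRNAs that time larval development had no thresholded summit. Among the 7 genes of the let-7 family and 2 of the lin-4 family, 3 had a pooled summit, beside 21.8% of all microRNA genes, and 0 a thresholded one, beside 7.66%. let-7, which promotes the change from larval to adult epidermal fates, had a pooled summit 1839 bp before its annotated 5′ end on X, with 35.9 in the pooled list (rank 1798), 14.5 in replicate 1 (rank 6541) and 20.1 in replicate 2 (rank 1428). That summit lay 143 bp before the start of C05G5.2. The let-7 window was drawn from an annotated transcript of 1732 bp, whereas the mature arm lies at X:14744234-14744255. The summit, at X:14747160, is more than 2000 bp from that arm. A window of 2000 bp before the mature arm would thus not hold it, and the let-7 counts depend on the annotation. mir-84 and mir-48 are relatives of let-7 that act earlier in larval life. mir-84 had a summit 542 bp before the gene with 32.8 in the pooled list, 15.7 in replicate 1 and 17.3 in replicate 2. mir-48 had one 257 bp before the gene with 24.5 in the pooled list, 14.4 in replicate 1 and 8.86 in replicate 2, and it ranked 5604 of 5659 in the pooled list. In the pooled list the −log10 of the q-value was 0.665 for let-7, 0.426 for mir-84 and 0.0180 for mir-48. It was 1.45 for mir-8210, the weakest thresholded microRNA summit. mir-241, mir-793, mir-794 and mir-795 completed the family and had no summit. lin-4 and its relative mir-237 had none in either list. Among the 7 protein-coding genes of the heterochronic pathway that were looked at, lin-14, the main target of lin-4, had a thresholded summit 147 bp before its start (59.1 in the pooled list, 34.1 in replicate 1, 22.3 in replicate 2). hbl-1 had 2 summits in the pooled list (40.05 and 33.3). Over start windows, that made 1 of 7 thresholded and 2 of 7 pooled, beside 4.68% and 15.6% of protein-coding genes. lin-28, lin-41, daf-12, lin-29 and lin-42 had none in the start window, and summits farther inside these genes were not counted.

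The strongest summit that missed the threshold belonged to mir-235 on I, a relative of mammalian miR-92 that acts in the hypodermis to hold blast cells at rest in unfed L1 larvae. It had 42.4 in the pooled list (rank 1298), 24.9 in replicate 1 and 16.98 in replicate 2, lay 1890 bp before the gene and held 1 WGATAR, and mir-8210 at 45.1 was the last member above the threshold. After it came mir-8205 in unc-59 (39.7), mir-52, mir-270 (37.9) and mir-253 in F44E7.5 (37.6). mir-270 ranked 1299 in replicate 1 (signal 23.6) and 24073 in replicate 2 (8.51). mir-253 ranked 9922 in replicate 1 (12.97) and 906 in replicate 2 (24.2). The ranks of both genes thus lay far apart between replicates. mir-355 (36.4), let-7, mir-58.1 in Y67D8A.2 (35.8), mir-228 (35.6), mir-5547 (34.7) and mir-84 followed. mir-58.1 had 13.5 in replicate 1 and 23.8 in replicate 2. mir-73 and mir-74 shared a summit of 32.3, mir-5553 had 32.2, and mir-239.2 shared a summit of 32.2 with mir-239.1, which is transcribed away from it. The summits of mir-8205, mir-270, mir-253, mir-355 and let-7 lay in a promoter window of a protein-coding gene. That of mir-8205 was 256 bp before W09C5.1 and 524 bp before its host, and that of mir-253 38 bp past its host start. Those of mir-270 and mir-355 lay 267 bp before T26C12.1 and 118 bp before T27D12.6. The others named under the threshold lay between protein-coding genes, except mir-58.1 and mir-5553 (introns) and mir-5547 (exon).

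Several well-studied microRNAs had no summit in either list. These were mir-1, which acts in muscle, lsy-6, which sets the left-right identity of a taste neuron, mir-124, a neuronal microRNA, and mir-34, known from stress and DNA damage responses. The mir-35 family, 8 genes that act in the embryo, had none at any member. Of 8 listed genes of the mir-58 family, 1 had a thresholded summit (mir-80) and 2 a pooled one. mir-58c, which shares the seed of mir-80 and was not on that list, had none, and in the mir-63 family 1 of 5 (mir-229) had both. The windows of its cluster neighbours mir-64, mir-65 and mir-66 began just past that summit. Pooled summits were thus at 0 of 8 genes of the mir-35 family and at 6 of 6 of the mir-51 family, beside 21.8% of all microRNA genes. However, mir-35 to mir-41 lie together at II:11537608-11538404 with largely the same window, and only mir-42 lies elsewhere. Genes of the mir-51 family share summits as well. These counts are therefore not counts of independent genes, and the families were not compared by a test.

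Genes of the microRNA machinery were read in the same way, over start windows. Of 12, 5 had a thresholded summit, beside 4.68% of protein-coding genes, and 6 had a pooled one, beside 15.6%. The list was small and chosen with earlier results known. nhl-2, a cofactor of the silencing complex, had 89.5 in the pooled list, 50.5 in replicate 1 and 40.7 in replicate 2. xrn-2, a nuclease that degrades mature microRNAs, had 82.3 in the pooled list, 44.4 in replicate 1 and 37.4 in replicate 2. The GW182 proteins, which link Argonaute to repression, were both listed, ain-1 with 74.6 and ain-2 with 49.2 in the pooled list. ain-1 had 51.9 in replicate 1 (rank 129) and 18.7 in replicate 2 (rank 1715). The Argonaute alg-5 had 45.9 in the pooled list. drsh-1, which encodes Drosha, had 24.8 there and no thresholded summit, with 15.7 in replicate 1 (rank 4913) and 9.33 in replicate 2 (rank 18729). alg-1, alg-2, dcr-1, pash-1, lin-28 and tsn-1 had no summit in the start window. mir-1828, inside pash-1, had a weak pooled summit of 25.3, 30 bp before the microRNA.

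Taking the replicates one at a time showed which microRNA genes both of them listed. Among the 1262 strongest peaks of replicate 1, 19 microRNA genes had a summit (7.28%, against 4.24% of protein-coding genes). Of these, 17 were among the 20 of the thresholded list. Replicate 2 also gave 19 (7.28%, against 4.65%), of which 14 were among the 20. Both replicates held 12 genes in common: mir-47, mir-51, mir-53, mir-71, mir-79, mir-238, mir-354, mir-2211, mir-2221, mir-5549, mir-5551 and mir-8204. mir-235 and mir-52 were added by replicate 1 alone, and mir-58.1, mir-62, mir-73, mir-74 and mir-253 by replicate 2 alone. mir-2216 was among the strongest of neither, with ranks of 1878 in replicate 1 and 2648 in replicate 2.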

How the data were processed

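ELT-3 ChIP-seq peaks were described in 1 group of 2 biological replicates. Peaks with background were called by the authors for each replicate and for the pooled alignments, against control alignments, and the pooled list was thresholded on reproducibility, per the file lists deposited with the libraries. Aligner and caller were not given in the sources used here. For each deposited peak there is a signal value, of unstated scale, and the −log10 of a q-value. No p-value was computed. Read depth is unknown, so intervals cover counting error only. The ce11 lists were used, with the WBcel235 RefSeq sequence and the Ensembl release 115 annotation; 0 columns held other samples. Positions are 1-based. Replicate values are those of the strongest peak overlapping by at least 1 bp. WGATAR was sought on both strands, wholly within 50 bp of the summit. Named genes were every microRNA gene with a thresholded summit, the 15 strongest others of the pooled list, a set of well-known genes, and counts for 6 families. Members and lists were chosen with earlier results of these data known. Alternatives covered windows, lists, motifs, the class of host and each replicate alone. Procedures were tested on simulated data, with pandas 2.3.3, numpy 2.4.6, matplotlib 3.10.9 and scipy 1.17.1 under Python 3.11.15.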

Additional observations from a re-analysis of the deposited data

How the results depend on the processing

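No paired analysis was possible because there was 1 group. With 1000 bp before the gene, 12 microRNA genes had a thresholded and 33 a pooled summit (4.60% and 12.6%, against 3.31% and 11.0% of protein-coding genes), and WGATAR was at 27.59% of the pooled microRNA summits, against 33.7% of others, which turned the direction. The upper 50% of the thresholded list by signal left 9 genes (3.45%, against 2.30%). Counting only summits nearer to the microRNA than to a protein-coding start left 13 of 261, with no such count made for protein-coding genes. WGATAR within 25 bp was at 19.64% of pooled microRNA summits, against 18.7% of others. Within 100 bp it was at 71.43% of thresholded and 55.36% of pooled microRNA summits, against 67.0% and 51.4% of others. At pooled summits, GATA was at 69.64%, against 58.3%, and TGATAA at 23.21%, against 19.7%. At thresholded summits both went the other way, with GATA at 66.67%, against 68.3%, and TGATAA at 28.57%, against 34.0%. Taking each replicate alone, the pooled WGATAR share ranged from 27.27 to 35.09% (31.8% and 31.7% of others). It lay below the others without replicate 2 and above them without replicate 1. The genes counted stayed at 19 for the thresholded list (7.28%, against 4.65% of protein-coding genes without replicate 1 and 4.24% without replicate 2). For the pooled list they were 63 without replicate 1 (24.1%, against 15.8%) and 55 without replicate 2 (21.1%, against 14.9%). The thresholded WGATAR share ranged from 44.4 to 50%. Inside minus apart ranged from -2.73 to 0.45 percentage points (thresholded) and from -5.70 to -0.54 (pooled). Counting only genes on the host strand as inside gave 6.28 points (-0.83 to 16.0) for thresholded summits and 3.47 (-7.04 to 15.5) for pooled ones, and 5000 bp gave 3.64 (-7.65 to 15.2) for pooled ones. The last 2 turn the sign of the pooled difference, and their intervals include 0. For thresholded summits the sign turned in that upper part of the list (-1.04), without replicate 2 (-2.73) and for summits nearer to the microRNA (-3.62). The cause of these shifts was not tested. Of 60 values under alternatives, 11 moved beyond the spread allowed and 49 did not. Unknown read depth limits what the absence of a summit shows.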
